A study of Homo sapiens with 6 samples.

Results

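Transcripts of the cytochrome P450 (CYP), UDP-glucuronosyltransferase (UGT) and cytosolic sulfotransferase (SULT) genes were measured by RNA-seq in A549, an established human line from a non-small cell lung cancer. The genes were taken by symbol, as CYP followed by a digit (CYP51A1 left out), UGT1A, UGT2A, UGT2B, UGT3A or UGT8, and SULT followed by a digit. They numbered 72 of the 16670 genes in the table, with 44 CYP, 19 UGT and 9 SULT genes. In the salinomycin group (n = 3), cells made senescent by 1 week of alisertib, a drug against Aurora A (a kinase of mitosis), then received 2.5 µM salinomycin for 48 h. In the untreated group (n = 3), cells had the same week of alisertib and no salinomycin. Alisertib is therefore common to both groups, salinomycin is the difference between them, and cells without alisertib were not analysed here. The labels call the libraries biological replicates without saying whether cultures were started separately, so p-values measure the spread between these libraries.

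P450s are heme enzymes that put an oxygen atom into a substrate, using electrons passed on by a reductase. UGTs and SULTs then attach glucuronic acid or a sulfate group, drawn from the donors UDP-glucuronic acid and PAPS, which makes the product more soluble and easier to export. Most are known from the liver and gut, where they clear drugs, bilirubin and steroids. The lung has a smaller set that acts on inhaled compounds, and other P450s make or destroy signals such as active vitamin D, retinoic acid and leukotrienes.

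Estimated reads per library were 14929443 to 19593759 in the salinomycin group and 13539959 to 16424252 in the untreated group. The epithelial keratins KRT8 and KRT18, EPCAM and CDH1 were detected in both groups. The summed epithelial markers were 33823.9 to 37954 units in salinomycin libraries and 152080 to 167704.6 units in untreated libraries, with all 5 of 5 markers present in each group. The keratins KRT8 and KRT18 make up most of that sum, and KRT19 alone of the 5 had the higher mean with salinomycin, at 3164 units against 1898 units. Of the 4 alveolar type 2 markers in the table, the surfactant genes SFTPC and SFTPB were at or near 0 in both groups. The other markers of that list were higher with salinomycin, ABCA3 at 3278 units against 1821 units and LAMP3 at 67 units against 4 units, and the list summed to 3176.4 to 3448 units in salinomycin and 1586.3 to 2081.8 units in untreated libraries. The 3 endothelial markers in the table summed to 2.8 to 10.2 units against 9.6 to 15.1 units. The 5 fibroblast markers summed to 408.8 to 448.1 units with salinomycin and 569.2 to 772.9 units untreated, mostly COL1A1 (416 units against 667 units). The 2 immune markers in the table summed to 43.1 to 58.2 units with salinomycin and 193.1 to 222.7 units untreated. CD14 was lower with salinomycin, at 30 units against 201 units, and LYZ higher, at 20 units against 6 units. Of the hepatocyte markers, which bear on genes best known from liver, 4 of 5 had lower means with salinomycin, with ALB at 0 units against 7 units, APOA1 at 0 units against 1 unit, TTR at 8 units against 109 units and FGB at 41 units against 4608 units. SERPINA1 of the same list was higher, at 534 units in salinomycin and 263 units in untreated cells, and the hepatocyte list summed to 574.9 to 598.9 units in salinomycin and 3930 to 5737.8 units in untreated libraries. The part of a shift in marker levels in the results below was not tested, and in bulk RNA fewer cells of a kind cannot be told apart from less RNA per cell.

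Of the 72 genes, 31 reached the filter for testing, a deposited value of at least 11 in 3 or more libraries, namely 19 CYP, 9 UGT and 3 SULT genes. With salinomycin 22 of the 31 fell and 7 rose at an adjusted p under 0.05, and 2 did not pass (limma, Benjamini-Hochberg over all 13088 tested genes). Among all tested genes 81.9% passed, 40.2% falling and 41.6% rising. At least 2-fold falls were seen in 18 members and at least 2-fold rises in 5, where 18.5% of all tested genes fell and 16.8% rose that far. The median log2 change was -1.97 over the 31 members and 0.02 over all tested genes. A total of 8 members passed the filter through the untreated libraries alone and so had to be lower with salinomycin. The other 23 reached a deposited value of 11 in some library of each group. They divided into 14 that fell, 7 that rose and 2 that did not pass, with a median of -0.79. Among those that fell, CYP27C1 (deposited values of 11, 9 and 9 with salinomycin) and CYP4F12 (17, 10 and 10) passed mainly through their untreated libraries. In 29 members the 2 groups did not overlap, with 22 below and 7 above, where 83.0% of all tested genes had no overlap, 40.6% below and 42.4% above.

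**Figure D1:**
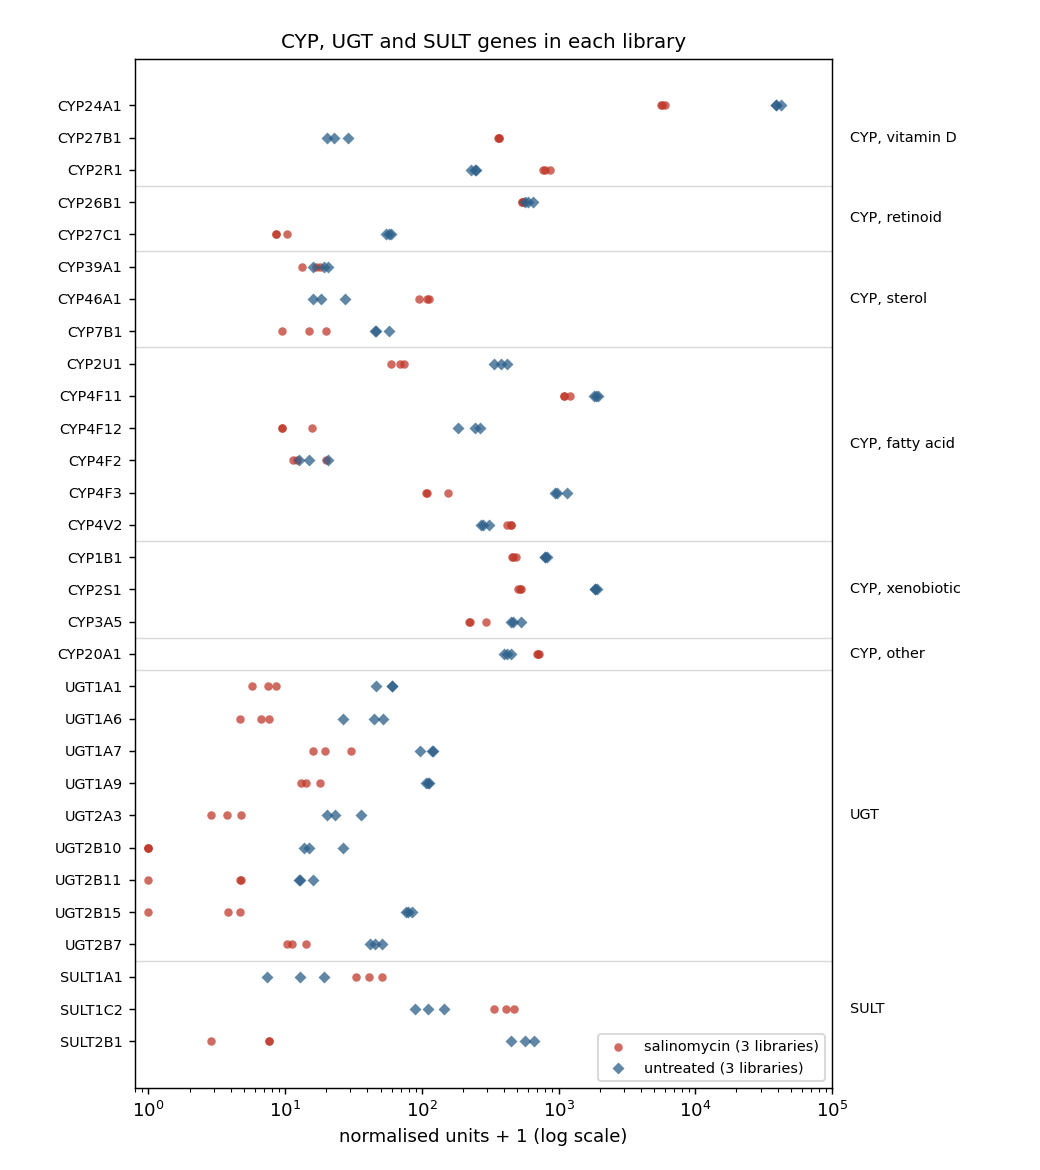
Normalised units plus 1 (log axis) of 30 tested CYP, UGT and SULT genes in each library, grouped by role, with salinomycin libraries as circles and untreated libraries as diamonds. All 9 UGT genes lie lower with salinomycin, while CYP27B1, CYP2R1, CYP46A1, SULT1C2 and SULT1A1 lie at least 2-fold higher.

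All 9 tested UGT genes fell, with a median log2 change of -2.78, but 6 of them passed the filter through the untreated libraries alone, and the 3 that passed in both groups were UGT1A7, UGT1A9 and UGT2B7. UGT8, just outside the filter, was higher with salinomycin (deposited values of 10, 11 and 11 against 3, 3 and 2 untreated). The CYP genes divided into 12 that fell, 5 that rose and 2 that did not pass, with a median of -0.79. That is 63.2% falling and 26.3% rising, where 40.2% of all tested genes fell and 41.6% rose. Of the 3 SULT genes 2 rose and 1 fell, and the 1 that fell (SULT2B1) also passed through the untreated libraries alone. Per kilobase of exon, CYP24A1 was the most abundant member in both groups, at 1451 units in salinomycin and 10157 units in untreated cells. Next in salinomycin cells came CYP4F11 (282 units per kilobase), CYP20A1 (229), CYP2S1 (181) and CYP2R1 (179), and next in untreated cells came CYP2S1 (648), CYP4F11 (467), SULT2B1 (198) and CYP4F3 (185). SULT2B1 and CYP4F3 left this leading set with salinomycin, at 1.77 and 22.4 units per kilobase, and CYP20A1 and CYP2R1 entered it.

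**Figure D2:**
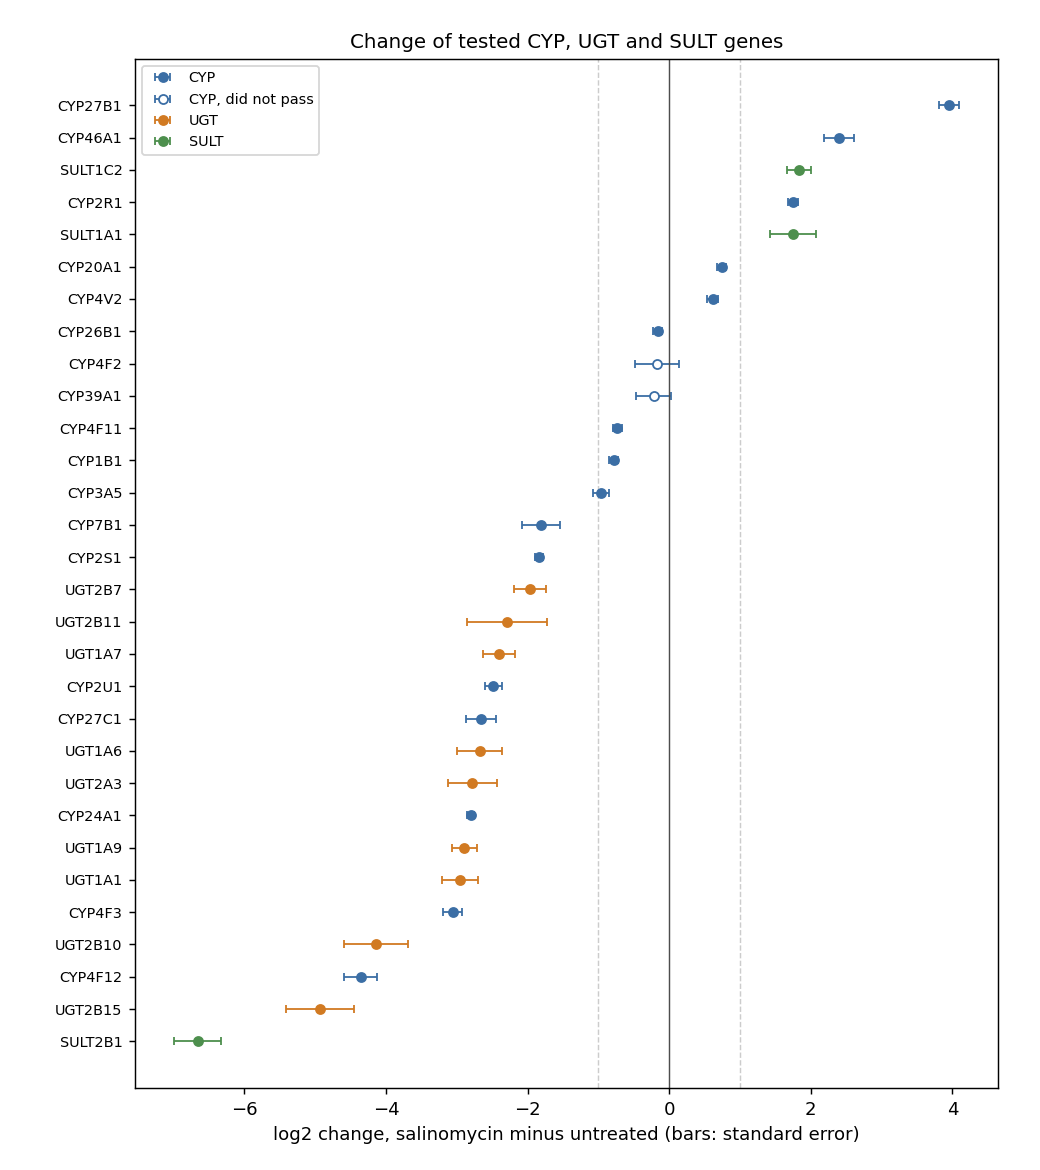
Log2 change, salinomycin minus untreated, of 30 tested members with standard errors, in order of size, coloured by family, with open circles for CYP39A1 and CYP4F2, which did not pass. Changes span SULT2B1 at -6.66 to CYP27B1 at 3.95, and dashed lines mark a 2-fold change.

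The vitamin D enzymes moved in opposite directions. CYP2R1 and CYP27B1, which add the hydroxyl groups that turn vitamin D into its active hormone, both rose, and CYP24A1, which breaks that hormone down, fell. CYP24A1 (chromosome 20, 54153449 to 54173973, minus strand, GENCODE release 29 on GRCh38) had 5980, 5608 and 5705 units in salinomycin libraries and 39108, 39263 and 42656 units in untreated libraries. Every salinomycin library was far below every untreated one. The log2 change was -2.81 ± 0.05 (SE; 6.99-fold lower, limma adjusted p = 1.62e-12).

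CYP27B1 (chromosome 12, 57762334 to 57768986, minus strand) had 360, 368 and 363 units with salinomycin and 21.6, 27.7 and 19.2 units untreated. The groups stood well apart, with a log2 change of 3.95 ± 0.14 (SE; 15.5-fold higher, or 12.1-fold with a pseudocount of 8; limma adjusted p = 1.91e-10). CYP2R1 (chromosome 11, 14877440 to 14892252, minus strand) had 857, 800 and 774 units with salinomycin and 244, 248 and 227 units untreated. Again no libraries overlapped, and the log2 change was 1.75 ± 0.07 (SE; limma adjusted p = 5.36e-10). CYP27A1, a mitochondrial enzyme that also hydroxylates vitamin D, was below the filter.

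The receptor of the hormone, VDR, had 312, 318 and 324 units with salinomycin and 54.1, 58.5 and 56.6 units untreated. It rose by 2.48 ± 0.10 on the log2 scale (SE; limma adjusted p = 4.8e-10), the largest rise among the tested genes of the receptor list described below. Its dimer partner RXRA had 506, 546 and 571 units with salinomycin and 1123, 982 and 1167 units untreated, a log2 change of -1.01 ± 0.08 (SE; limma adjusted p = 1.17e-07). CYP24A1 is itself a textbook target of VDR. In these libraries CYP24A1 was low where VDR, CYP27B1 and CYP2R1 were high. The authors' deposited table of gene sets gave the vitamin D receptor pathway a normalised enrichment score of -1.68 (adjusted p = 0.00361).

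**Figure D3:**
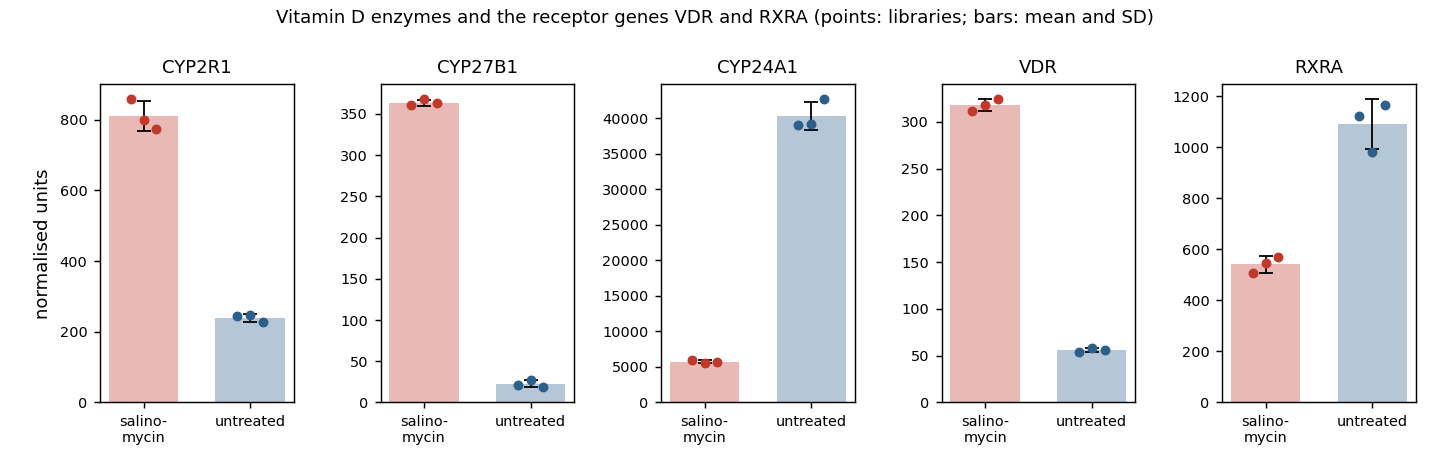
Normalised units per library (points) with mean and SD (bars) for CYP2R1, CYP27B1, CYP24A1 and the receptor genes VDR and RXRA, salinomycin left and untreated right, each on its own axis from 0. CYP2R1, CYP27B1 and VDR are higher with salinomycin, and CYP24A1 (5764 units against 40342 units) and RXRA are lower.

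Both tested retinoid P450s fell, and of 3 sterol P450s 1 rose, 1 fell and 1 did not pass. Among all tested genes 40.2% fell and 41.6% rose. CYP27C1, which desaturates vitamin A, had 9.26, 7.50 and 7.51 units with salinomycin and 54.1, 56.4 and 58.7 units untreated. The groups did not overlap, and it fell by 2.66 ± 0.21 on the log2 scale (SE; 6.33-fold, or 4.005-fold with a pseudocount of 8; limma adjusted p = 1.76e-07). CYP26B1, which clears retinoic acid, averaged 541 ± 6.87 units with salinomycin and 607 ± 40.6 units untreated (SD, n = 3 each). Its log2 change of -0.16 ± 0.07 (SE) passed narrowly (limma adjusted p = 0.0421), became 0.03 under scaling by library size alone, and missed the threshold when any library but untreated replicate 2 was left out (adjusted p up to 0.148).

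Of the sterol enzymes, CYP46A1, the cholesterol hydroxylase known from neurons, had 112, 109 and 94.8 units with salinomycin and 17.3, 26.6 and 14.9 units untreated. All 3 salinomycin libraries were higher, with a log2 change of 2.40 ± 0.21 (SE; 5.29-fold, or 4.16-fold with a pseudocount of 8; limma adjusted p = 4.82e-07). CYP7B1, an oxysterol hydroxylase of bile acid synthesis, fell by 1.81 on the log2 scale, to 13.7 ± 5.15 units with salinomycin against 48.6 ± 6.62 units untreated (SD, n = 3 each). CYP39A1, another oxysterol hydroxylase, had 14.9 ± 2.44 units with salinomycin and 17.5 ± 2.32 units untreated, overlapping groups (limma adjusted p = 0.432).

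Among the P450s that hydroxylate fatty acids and eicosanoids, 4 of 6 tested genes fell, 1 rose and 1 did not pass. That is 66.7% falling and 16.7% rising, where 40.2% of all tested genes fell and 41.6% rose. CYP4F12, 1 of the 4, passed the filter mainly through its untreated libraries. Neighbouring CYP4F genes on chromosome 19 differed widely in size of change. CYP4F3 (15640897 to 15662825, plus strand), which inactivates an inflammatory leukotriene, had 155, 107 and 109 units with salinomycin and 941, 1151 and 973 units untreated. CYP4F12 (15672757 to 15697174, plus strand), which oxidises arachidonic acid and some antihistamines, had 14.8, 8.44 and 8.45 units with salinomycin and 245, 267 and 184 units untreated. Both genes were lower in every salinomycin library, with log2 changes of -3.05 ± 0.13 and -4.36 ± 0.23 (SE; limma adjusted p = 8.81e-10 and 4.21e-09). For CYP4F12 that is a fall of 20.5-fold, or 12.9-fold with a pseudocount of 8.

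CYP4F11 (15912367 to 15934867, minus strand), which acts on long-chain fatty acids and vitamin K, fell much less, by 0.73 ± 0.06 on the log2 scale (SE), to 1135 ± 71.3 units with salinomycin against 1882 ± 71.3 units untreated (SD, n = 3 each). CYP4F2 beside it had 11.1, 18.8 and 10.3 units with salinomycin and 19.5, 11.7 and 13.9 units untreated, which overlapped (limma adjusted p = 0.62). The CYP4F genes are close copies of one another, so how reads were shared among them by the counting is uncertain. CYP2U1, an arachidonic acid hydroxylase, had 58.3, 73.1 and 68.5 units with salinomycin and 336, 377 and 418 units untreated, a log2 change of -2.48 ± 0.12 (SE; limma adjusted p = 2.29e-09). An annotated antisense transcript overlaps 8.6% of its exon bases, and whether the counting used strand was not given in the sources used here. CYP4V2, a fatty acid hydroxylase mutated in a crystalline retinal dystrophy, rose by 0.61 ± 0.08 on the log2 scale (SE), with 438 ± 15.9 units with salinomycin and 286 ± 19.8 units untreated (SD, n = 3 each).

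All 4 tested P450s best known for foreign compounds fell, where 40.2% of all tested genes fell. CYP2S1 (chromosome 19, 41193049 to 41207539, plus strand), an extrahepatic enzyme found in epithelia such as the airway, had 507, 529 and 523 units with salinomycin and 1914, 1838 and 1833 units untreated. The libraries of each group lay close together and the groups far apart, at a log2 change of -1.84 ± 0.05 (SE; 3.58-fold lower, limma adjusted p = 3.13e-11). CYP1B1 (chromosome 2, 38066973 to 38109902, minus strand), which oxidises oestrogens and polycyclic hydrocarbons, had 485, 454 and 465 units with salinomycin and 792, 800 and 828 units untreated, a log2 change of -0.79 ± 0.06 (SE; limma adjusted p = 1.49e-07). CYP1B1 shares 12.9% of its exon bases with transcripts of the opposite strand.

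CYP3A5 (chromosome 7, 99648194 to 99680026, minus strand), the main CYP3A enzyme of lung, had 294, 219 and 224 units with salinomycin and 459, 529 and 447 units untreated. Its groups did not overlap, and it fell by 0.97 ± 0.12 on the log2 scale (SE; limma adjusted p = 7.79e-06). CYP1A1, the classical target of the dioxin receptor AHR, was below the filter, with a mean of 7.17 units with salinomycin and 3.57 units untreated, and the ratio of reads of 1.81 had a 95% counting interval of 0.832 to 4.23. CYP20A1, an orphan P450 with no settled substrate, rose by 0.74 ± 0.07 on the log2 scale (SE), with 704 ± 13.5 units with salinomycin and 422 ± 26.1 units untreated (SD, n = 3 each).

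All 9 tested UGT genes lay in 2 gene clusters, 4 UGT1A genes on chromosome 2 between 233671853 and 233773300 and 5 UGT2 genes on chromosome 4 between 68646630 and 69214731. The UGT1A genes have separate first exons joined to a common set of later exons, so 40.6% to 61.2% of each gene's exon bases are shared and their counts are not independent. UGT1A9, which conjugates phenols such as propofol, had 12.04, 16.9 and 13.1 units with salinomycin and 112, 111 and 106 units untreated. UGT1A7, an extrahepatic enzyme that acts on phenolic carcinogens, had 18.5, 29.1 and 15.0 units with salinomycin and 120, 95.8 and 117 units untreated. Every salinomycin library was below every untreated one in both genes, with log2 changes of -2.89 ± 0.18 and -2.40 ± 0.23 (SE; limma adjusted p = 1.95e-08 and 8.95e-07).

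UGT1A1, the enzyme that conjugates bilirubin, had 6.48, 7.50 and 4.69 units with salinomycin and 59.5, 59.6 and 44.8 units untreated. UGT1A6, which takes small flat phenols, had 3.70, 6.56 and 5.63 units with salinomycin and 50.8, 43.6 and 25.6 units untreated. Neither gene overlapped between groups, and the log2 changes were -2.95 ± 0.25 and -2.68 ± 0.32 (SE; limma adjusted p = 3.37e-07 and 7.29e-06). These are falls of 7.74-fold and 6.39-fold, or 4.39-fold and 3.53-fold with a pseudocount of 8. Transcripts annotated on the opposite strand overlap 20.5% of the exon bases of UGT1A6. The log2 changes of the 4 tested UGT1A genes lay between -2.40 and -2.95. UGT1A3, UGT1A4 and UGT1A8 were below the filter.

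The stretches before the starts of UGT1A9 and UGT1A7 are shown because these neighbouring genes had the highest units of the 4 tested UGT1A genes and because their upstream sequences are alike, with 77.6% identity over 250 bases. The bases are -100 to -46 before the RefSeq start on GRCh38.p14, plus strand, at chr2:233671798-233671852 and chr2:233681801-233681855. Capitals mark CACGC, the reverse complement of GCGTG, the core of the element bound by AHR.
UGT1A9: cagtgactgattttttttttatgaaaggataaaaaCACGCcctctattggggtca
UGT1A7: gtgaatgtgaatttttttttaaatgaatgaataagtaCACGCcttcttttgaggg

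Of the UGT2 genes, UGT2B15, which conjugates androgens, had 3.70, 0 and 2.82 units with salinomycin and 83.2, 75.5 and 77.9 units untreated. The salinomycin libraries were close to 0, with 8 estimated reads in all. Its log2 change was -4.93 ± 0.48 (SE; limma adjusted p = 1.27e-06), which is 30.5-fold with a pseudocount of 1 and 8.65-fold with a pseudocount of 8. Without salinomycin replicate 2, which had 0 reads, the UGT2B15 log2 change was -4.24. Scaled for depth, reads were 34.6-fold lower, with a 95% counting interval of 17.2-fold to 81.1-fold. UGT2B7, which conjugates morphine, had 10.2, 9.38 and 13.1 units with salinomycin and 41.1, 44.7 and 50.1 units untreated, a log2 change of -1.97 ± 0.22 (SE; limma adjusted p = 4.48e-06).

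UGT2A3, at 2.80 ± 0.940 units with salinomycin and 25.4 ± 8.13 units untreated (SD, n = 3 each), fell by 2.78 on the log2 scale, 6.88-fold or 3.04-fold with a pseudocount of 8. UGT2B10, which conjugates nicotine, had 0 estimated reads in the salinomycin libraries and 46 in the untreated ones, so it was at least 20.4-fold lower at a floor of 3 reads over the group. UGT2B11 was just inside the filter, with deposited values of 5, 1 and 5 with salinomycin and 12, 12 and 15 untreated, and fell by 2.29 ± 0.57 on the log2 scale (SE; 4.89-fold, or 2.01-fold with a pseudocount of 8; limma adjusted p = 0.00267). Without salinomycin replicate 2 the UGT2B11 log2 change was -1.54, and transcripts of the opposite strand overlap 17.9% of its exon bases. With UGT2B10 set at its bound the median of the UGT genes stayed at -2.78. It could not move, because UGT2B10 lay below the median either way.

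The UGT2B10 and UGT2B11 sequences are shown because their 250 upstream bases were 90.2% identical, the closest pair of those compared, and because both genes were near 0 with salinomycin. The other UGT pairs within a cluster were 48.1% to 77.6% identical and the CYP4F pairs 46.2% to 64.3%. The bases are -250 to -11 before the RefSeq start on GRCh38.p14, at chr4:68815744-68815983 on the plus strand and chr4:69214759-69214998 on the minus strand. Capitals mark GCAAGGTCA, the reverse complement of a match to TGACNNNGC, the core of the antioxidant response element.
UGT2B10: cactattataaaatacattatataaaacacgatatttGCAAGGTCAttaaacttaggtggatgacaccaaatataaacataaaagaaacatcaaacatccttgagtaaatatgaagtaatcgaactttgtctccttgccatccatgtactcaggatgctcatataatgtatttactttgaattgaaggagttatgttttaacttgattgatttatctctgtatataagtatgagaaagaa
UGT2B11: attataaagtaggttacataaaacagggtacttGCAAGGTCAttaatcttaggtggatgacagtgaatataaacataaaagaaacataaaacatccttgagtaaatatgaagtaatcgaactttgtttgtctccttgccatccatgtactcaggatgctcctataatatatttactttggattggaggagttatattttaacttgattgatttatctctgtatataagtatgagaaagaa
Such near-copies may also have shared reads in the counting, so the split of low counts among UGT2B genes is uncertain.

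The sulfotransferases gave the largest fall of any member and 2 of its rises. SULT2B1 (chromosome 19, 48552075 to 48599425, plus strand), which sulfonates cholesterol and other hydroxysteroids and is known from skin, had 1.85, 6.56 and 6.57 units with salinomycin and 662, 451 and 566 units untreated. It was thus close to absent in all 3 salinomycin libraries, with 16 estimated reads against 1468. SULT2B1 passed the filter through the untreated libraries alone, so a fall was the only direction it could show. The log2 change was -6.66 ± 0.33 (SE; limma adjusted p = 2.32e-09), a 101-fold fall with a pseudocount of 1 and a 43.9-fold fall with a pseudocount of 8. The reads, scaled for depth, were 122-fold lower with a 95% counting interval of 74.9-fold to 214-fold.

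The sequence before SULT2B1 is shown as that of the member with the largest change. It covers bases -250 to -98 before the RefSeq start on GRCh38.p14 (chr19:48551922-48552074, plus strand), and capitals mark GCGTG. A second GCGTG began at base -90, outside the stretch printed.
SULT2B1: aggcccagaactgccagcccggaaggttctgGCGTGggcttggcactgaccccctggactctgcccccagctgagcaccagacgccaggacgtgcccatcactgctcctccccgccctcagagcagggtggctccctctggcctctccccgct

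SULT1C2 (chromosome 2, 108288639 to 108309915, plus strand), which sulfonates small phenols, had 475, 411 and 334 units with salinomycin and 109, 145 and 88.6 units untreated. SULT1A1, the main phenol sulfotransferase of human tissues, had 49.99, 31.9 and 40.4 units with salinomycin and 11.9, 18.1 and 6.40 units untreated. Both rose without overlap between groups, by 1.84 ± 0.17 and 1.75 ± 0.33 on the log2 scale (SE; limma adjusted p = 7.71e-07 and 3.67e-04). SULT1A1 has near-identical copies in its subfamily, and the assignment of its reads is uncertain.

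Another 41 members were not tested, 25 CYP, 10 UGT and 6 SULT genes, with 173 estimated reads in all over the salinomycin libraries and 309 over the untreated ones. They included all 4 P450s of steroid hormone synthesis and 13 of 17 P450s best known for foreign compounds. No reads were estimated for 15 of them in salinomycin libraries and for 4 in untreated libraries. The genes just outside the filter were UGT8, which makes a myelin lipid, with deposited values of 10, 11 and 11 with salinomycin and 3, 3 and 2 untreated, and the liver enzymes CYP3A4, with 5, 4 and 7 against 13, 9 and 13, and CYP2E1, with 3, 3 and 3 against 13, 8 and 13. The highest mean among these 41 genes was 9.03 units with salinomycin and 11.4 units untreated, so their levels could not be ranked at this depth.

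Promoter windows of RefSeq on GRCh38.p14, 250 bases before to 50 after a start, were at hand for 23 of the 31 tested members, in 29 windows, and motifs were searched on both strands. GCGTG was found in 27.6% of the member windows and in 36.5% of all 35116 windows. TGACNNNGC was found in 20.7% of the member windows and in 13.3% of all. It lay before genes that moved in both directions, among them UGT2B10, UGT2B11 and CYP4F11, which fell, and SULT1C2 and CYP4V2, which rose. CAAAGTCCA, a site of the liver factor HNF4, was found in 3.45% of member windows and 0.384% of all, in CYP2R1 alone among the members. That is 1 of the 29 member windows. The HNF1 site, the sterol regulatory element TCACCCCAC and the CEBP-ATF core TGATGNAA were in 0 member windows, and in 0.0057%, 0.43% and 3.62% of all windows. A match describes these letters only, and matches of different motifs did not overlap in the windows shown.
The CYP2R1 stretch, bases -200 to -100 before 1 of its 3 RefSeq starts (chr11:14892331-14892431, minus strand), is shown as the only HNF4 match among the members, in capitals.
CYP2R1: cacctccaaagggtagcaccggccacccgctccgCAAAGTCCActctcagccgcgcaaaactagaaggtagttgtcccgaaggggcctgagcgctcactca

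Summed over all its genes, each family was lower with salinomycin in total units. The 44 CYP genes summed to 11376 ± 267 units in salinomycin libraries and 48846 ± 1962 units in untreated libraries (SD, n = 3 each). CYP24A1 made up 50.7% of that sum with salinomycin and 82.6% untreated. Without it the CYP sum was 5612 ± 126 units with salinomycin and 8504 ± 170 units untreated. The 19 UGT genes summed to 78.8 ± 5.23 units with salinomycin and 519 ± 27.5 units untreated, and in every salinomycin library the sum was below 100 units. The 9 SULT genes summed to 458 ± 73.8 units with salinomycin and 704 ± 90.3 units untreated, where SULT2B1 held most of the untreated sum and SULT1C2 most of the salinomycin sum.

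The genes that serve these enzymes were listed by role. The counts of each list stand beside 40.2% falling and 41.6% rising among all tested genes. Of 11 tested electron donors and membrane partners of P450s, 10 fell, 0 rose and CYB5R3 did not pass, with a median log2 change of -0.61 beside 0.02 for all tested genes. Under scaling by library size alone 7 fell and 1 rose. POR, the reductase that feeds the P450s of the endoplasmic reticulum, had 955, 1016 and 989 units with salinomycin and 1921, 1522 and 1714 units untreated, and fell by 0.79 ± 0.08 on the log2 scale (SE; limma adjusted p = 1.1e-06). CYB5A, the cytochrome that hands some P450s their second electron, changed by -1.58, and CYB5R2, a cytochrome b5 reductase, by -1.01. The 10 heme synthesis genes divided evenly into 5 that rose and 5 that fell (median 0.02), not far from the shares over all tested genes. The 5 lower calls became 3 without salinomycin replicate 1, without salinomycin replicate 2 or without untreated replicate 2, with the replicate number as a block, and under library size alone, with 5 genes called higher in each case. PPOX rose by 1.15 on the log2 scale, while CPOX before it and FECH, which inserts the iron, fell by 1.72 and 1.36.

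The sugar and sulfate donors have supply genes of their own. Of 7 genes listed for UDP-glucuronic acid, 3 rose, 3 fell and 1 did not pass (median -0.08). That is 42.9% each way, near the shares over all tested genes. UGDH, which makes the donor, had 4046, 4076 and 4071 units with salinomycin and 9822, 9712 and 9832 units untreated. The libraries of each group agreed closely, and it fell by 1.27 ± 0.04 on the log2 scale (SE; limma adjusted p = 1.04e-10). UGP2, the step before it, changed by -1.04. SLC35B1, a transporter of the endoplasmic reticulum membrane whose part in this supply is uncertain, changed by 0.76 and is 1 of the 3 that rose. Of 8 tested genes for PAPS, 5 rose, 2 fell and PAPSS1 did not pass (median 0.48).

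PAPSS2, a PAPS synthase, had 3836, 3552 and 3533 units with salinomycin and 2076, 2176 and 2052 units untreated, a log2 change of 0.79 ± 0.05 (SE; limma adjusted p = 3e-08). BPNT2, which clears the spent donor in the Golgi, and SLC35B3, which carries PAPS into it, rose by 0.91 and 0.88, and the sulfate transporter SLC26A11 fell by 1.13. The next list held 10 genes, namely enzymes that hydrolyse conjugates, esters or epoxides and the sulfatase-modifying factors SUMF1 and SUMF2. Of these 10 genes 7 fell, 1 rose and 2 did not pass (median -0.58). EPHX1, the microsomal epoxide hydrolase that follows P450s, had 2134, 2142 and 2113 units with salinomycin and 22625, 20964 and 20155 units untreated, a log2 change of -3.32 ± 0.05 (SE; limma adjusted p = 3.82e-13). CES1, a carboxylesterase of drug clearance, changed by -2.87 and ARSA, a lysosomal sulfatase, by -1.28, whereas EPHX2, the soluble epoxide hydrolase, rose by 0.86.

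**Figure D4:**
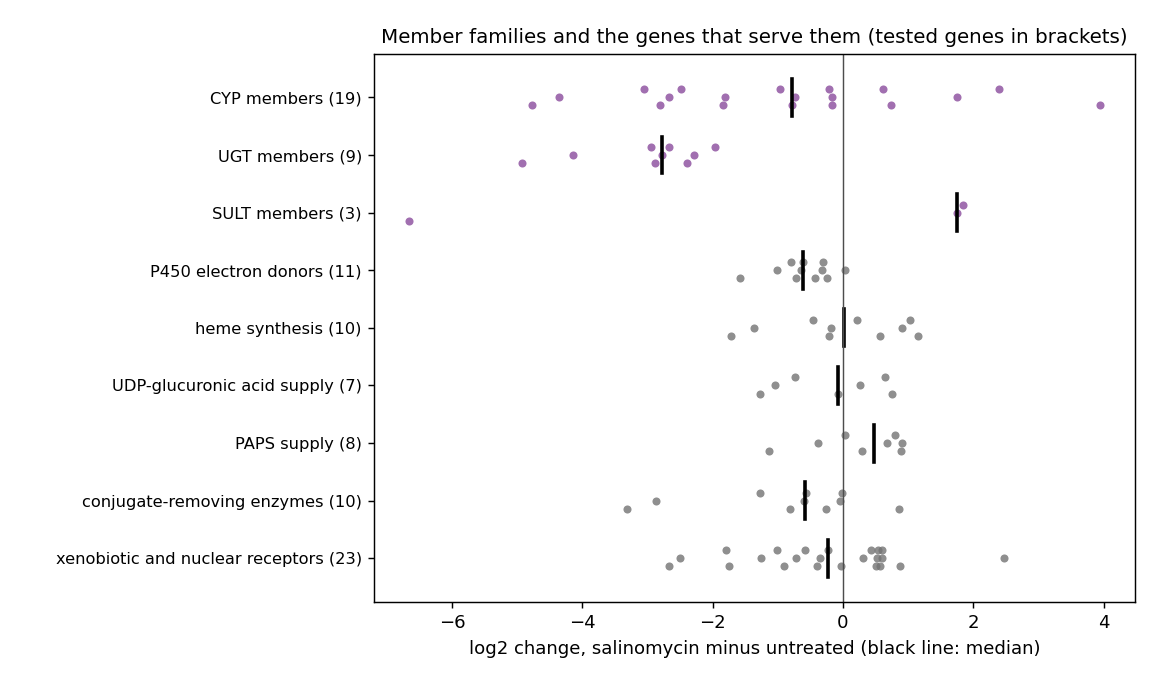
Log2 change, salinomycin minus untreated, of each tested gene (points) in the member families and in the lists of genes that serve them, with the median of each as a black line and the number tested in brackets. The UGT genes lie wholly below 0, the electron donors lie mostly below 0 (median -0.61), and the heme synthesis genes lie on both sides (median 0.02).

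Of 23 tested receptors and factors known to control these families, 11 fell, 10 rose and 2 missed the threshold, and their median log2 change was -0.22. The shares of 47.8% falling and 43.5% rising were near the 40.2% and 41.6% of all tested genes. Of the tested genes in this list, HNF4A, a master factor of liver genes, fell most. It had 188, 171 and 167 units with salinomycin and 1159, 1027 and 1178 units untreated, a log2 change of -2.67 ± 0.08 (SE; limma adjusted p = 3.87e-11). NR1H4, the bile acid receptor, changed by -2.51. AHR had 335, 327 and 316 units with salinomycin and 445, 553 and 477 units untreated, and fell by 0.59 ± 0.09 on the log2 scale (SE; limma adjusted p = 5.21e-05). NR1I2, the drug-sensing receptor that controls CYP3A4 in liver, was at 0 in all salinomycin libraries and averaged 0.355 units in untreated libraries, too low to compare.

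The authors' deposited table of gene sets gave normalised enrichment scores of -2.65 for metabolism of xenobiotics by P450 (adjusted p = 8.31e-08) and -2.50 for P450 drug metabolism (adjusted p = 2.19e-06). Another 2 P450 sets did not pass in the authors' deposited table, with -1.68 for P450s arranged by substrate type (adjusted p = 0.0546) and -1.57 for oxidation by P450 (adjusted p = 0.101). In the same authors' deposited table the glucuronosyltransferase activity set had -0.79 (adjusted p = 0.885) and the sulfotransferase activity set -1.11 (adjusted p = 0.53). Those sets hold many enzymes outside the 72 genes described here.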

How the data were processed

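RNA-seq values of A549 cells after alisertib were compared between 3 salinomycin and 3 untreated libraries. GRCh38 is the build named in the submitters' processing notes, and aligner, counter, annotation and strandedness are not given in the sources used here. Whole numbers make up the deposited signal values, 1 per gene and library, which the authors rescaled (totals within 0.692% of each other), and the lowest is 1. That 1 was subtracted. The authors' gene set table, with normalised enrichment scores and adjusted p-values per the file headers, was used only as quoted.

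Libraries were scaled by trimmed mean of M values (TMM) (30% of log ratios and 5% of levels trimmed), giving scale factors of 1.0653 to 1.0802 for salinomycin and 0.925 to 0.9399 for untreated libraries. These normalised units entered limma as log2(units + 1) (version 3.58.1 in R 4.3.3, mean-variance trend), with Benjamini-Hochberg adjustment over 13088 genes with a deposited value of at least 11 in 3 or more libraries. Log2 changes are on this scale and understate changes of low genes. All changes are relative to this scaling.

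Reads were estimated from the rounding steps of the deposited values (factors 0.833 to 1.2035; in libraries with a factor above 1, 99.95% to 100% of low values could be reached from whole reads). Ratios of reads were scaled for depth, and their 95% exact intervals and floors of 3 reads cover counting error only. Simulated data (12845 genes tested) had changes in a small share of genes, equally up and down, and an assumed spread between libraries. On them the fit recovered 34.7% of 1.2-fold, 90% of 1.5-fold, 92% of 2-fold and 100% of 4-fold changes, with 6 false of 162 calls. In the real libraries 81.9% of tested genes passed, so these rates may not hold for this comparison. Chi-square per gene between libraries of one group was 2.77 to 6.45, so none was taken as a repeat.

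The genes, lists and naming rule were chosen with earlier results of these data known. Named with every library's value were members changed at least 2-fold with a mean of 50 units or more in a group, a fixed set of 12 genes (AHR, CYP1A1, CYP1B1, CYP24A1, CYP3A5, NR1I2, PAPSS2, POR, SULT1A1, SULT2B1, UGDH and UGT1A6, with CYP1A1 and NR1I2 given by their means), and, by log2 change, the 3 largest of each list. Library values of the receptor genes VDR and RXRA, and of UGT2B7, UGT2B11, EPHX1, HNF4A and the genes just outside the filter, were added after their values were seen. A gene that this rule names is not reported here, though counts and sums include it. Coordinates are 1-based, from GENCODE release 29. Upstream identities are from global alignments in Biopython 1.88. Alternatives were other scalings (library size alone, upper quartile, median of ratios), no filter or a deposited minimum of 51, pseudocounts of 0.5 and 8, limma-voom on estimated reads, a block for the replicate number, and each library left out in turn.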

Additional observations from a re-analysis of the deposited data

How the results depend on the processing

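Among the 31 tested members, CYP26B1 was the one whose call depended on the setting. The CYP26B1 log2 change was 0.034 under library size alone, and its call was lost with limma-voom (adjusted p = 0.0555) and when any library but untreated replicate 2 was left out. With no filter, 8 members rose and 29 fell at least 2-fold, and with the stricter filter, which left 20 members, 14 fell, 10 of them at least 2-fold. Of the UGT genes 1 was called higher and 11 lower with no filter, where the main fit called 0 higher and 9 lower. Over all tested genes, scaling by library size alone put the median log2 change at 0.22, where TMM gave 0.02, with 6490 higher and 4325 lower calls in place of 5451 and 5266. Under it SUMF2 changed by 0.19. Deviations of same-numbered libraries were not positively correlated between the groups (-0.172, -0.013 and -0.033). With 3 libraries per group this cannot show whether the cultures were paired, and the labels do not say. With the replicate block 5325 genes were higher and 5130 lower, and CYP26B1 lost its call (adjusted p = 0.0772), the one call among the members to change. Depth limits the members with few reads, for which the size of a fold depends on the pseudocount.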
